A study of Mus musculus with 12 samples.

Results

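The 35 genes described here belong to the unfolded protein response of the endoplasmic reticulum (ER) and to the integrated stress response. They were taken by symbol from a table of raw read counts of 41128 genes in 12 mouse libraries, and all 35 were found in it. By role they are 14 ER chaperones and folding enzymes, 6 genes of ER-associated degradation (ERAD) and translocation, 4 genes of sensors and their transcription factors, and 11 genes of the ATF4 arm.

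The ER folds proteins that a cell secretes, and hepatocytes, which secrete most plasma proteins, hold a large one. When unfolded proteins accumulate, ATF6 and the kinase and endonuclease IRE1 (gene Ern1), which splices the Xbp1 transcript, raise ER chaperones and degradation components. The third sensor, the kinase PERK (gene Eif2ak3), phosphorylates the translation factor eIF2α, as do other kinases that sense amino acid shortage, viral RNA or haem shortage, and this lets the transcription factor ATF4 be translated and raise amino acid synthesis genes and Ddit3, which encodes CHOP.

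Polyadenylated RNA was sequenced from 5 groups. Untreated hepatocytes (n = 3) and peritumoral hepatocytes (n = 3) came from mice with the alleles Lats1tm1.1Jfm/RjoJ and Lats2tm1.1Jfm/RjoJ, titled wild type, and the labels do not say whether a Cre recombinase was present. Peritumoral hepatocytes came from livers in which tumours had grown for 8 weeks after hydrodynamic injection, at an age of 8 weeks, of SB11 (a transposase, 1 µg), myc-NICD (the active part of Notch, 20 µg) and myr-HA-Akt (membrane-bound Akt, 4 µg). Hydrodynamic injection delivers plasmids to a part of the hepatocytes. Untreated hepatocytes are labelled 8 weeks old as well. Age at collection may therefore differ from that of peritumoral hepatocytes, and it cannot be told apart from tumour growth. Control livers (n = 2) and livers taken 24 h (n = 2) and 48 h (n = 2) after a single intraperitoneal injection of the liver toxin thioacetamide (TAA) came from CD-1 IGS mice, also labelled 8 weeks old. The labels call these samples purified hepatocytes too, whereas the series design calls them livers, the word used below. Separate animals are not stated for the libraries of any group, and p-values therefore reflect the spread among these libraries, which may be technical.

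Total counts ran from 9640845 to 18522324, and 3 counts, the floor of detection used here, corresponded to between 0.162 and 0.311 RPM, the number of reads scaled to a common library total. Some libraries stood apart from others of their group. Summed RPM of 11 pancreatic acinar markers was 7003 and 60.9 in the control livers, 7.75 and 6.79 at 24 h and 3469 and 14010 at 48 h, with 3 and 4 of the 11 at 0 in the 24 h libraries. Among hepatocytes it stayed between 16.5 and 253 RPM. Peritumoral replicate 2 had 10330 RPM of 8 biliary markers against 1119 and 780 RPM in replicates 1 and 3, and, alone among the 6 hepatocyte libraries, a high level of the female transcript Xist (527 RPM, against at most 0.183 RPM). Ddx3y, a Y-linked gene, was at 0 in that library and between 59.6 and 75.5 RPM in the other 5. Untreated replicate 3 lay below replicates 1 and 2 in most chaperones. Hepatocyte markers were high in every library (10 genes, 82760 to 188000 RPM), and their sum was 183400 and 188000 RPM in control livers against 125800 to 145300 RPM after TAA. Levels below are CPM, the same unit with TMM scaling factors applied, computed separately for hepatocytes and livers. Each change is a log2 fold change ± SE, its adjusted p comes from the quasi-likelihood test of edgeR, adjusted by Benjamini-Hochberg over every gene tested, and a gene passed at an adjusted p under 0.05.

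Per kilobase of exon, the highest levels among the 35 genes were those of chaperones. In untreated hepatocytes Calr, a calcium-binding lectin chaperone, stood at 737 CPM per kilobase, Hspa5, the Hsp70 chaperone BiP, at 631 and Hsp90b1, the ER form of Hsp90, at 585. The lowest were Phgdh, the first enzyme of serine synthesis, at 0.86 and Chac1, an enzyme that degrades glutathione, at 1.16 CPM per kilobase. In control livers the lowest were Psat1, the next enzyme of serine synthesis (0.192), Phgdh (0.228) and Asns, asparagine synthetase (0.678). All 35 genes passed the filter on low counts in each fit. On GRCm38, exons of some members overlap those of other genes, over 15.7% of their length in Hsp90b1, 10.9% in Ddit3, 9.25% in Manf, 8.05% in Eif2ak3 and 4.11% in Atf5, and no source used here gives the strand setting of the counting.

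Promoter sequences were searched for elements already known from genes of these pathways, so matches among the members describe them and test nothing. RefSeq windows on GRCm38.p6, from 250 bases before to 50 after each gene's start, were matched for 32 of the 35 members, all but Atf6, Hyou1 and Manf. They were searched on both strands for exact letters of known elements: the ER stress response element ERSE (CCAAT, any 9 bases, then CCACG), ERSE-II (ATTGG, any 1 base, then CCACG), the unfolded protein response element UPRE (TGACGTGG), the C/EBP-ATF composite element CARE (TGATGNAA) and the cyclic AMP response element CRE (TGACGTCA). ERSE and ERSE-II are known as elements bound by ATF6 and XBP1, and CARE as one bound by ATF4 with a C/EBP partner. ERSE was found in 9 members, which are Calr, Canx, Creld2, Dnajc3, Hsp90b1 (in 2 places), Hspa5 and Pdia6 among chaperones and Derl3 and Syvn1 among ERAD genes, against 0.137% of 27025 genes with a window. ERSE-II was found in Dnajb11 and Herpud1 (0.0444% of genes). CARE was found in 5 genes of the ATF4 arm, Asns, Atf3, Chac1, Fgf21 and Trib3, and in Herpud1 (4.51% of genes). CRE was found in Ppp1r15a (2.03%), and UPRE in no member (0.714%). No match overlapped another. ERSE was thus held by 7 of 12 chaperone windows, and CARE by 5 of 11 windows of the ATF4 arm. The stretches below are a selection of these matches. It includes Hspa5 and Creld2, which passed in no comparison with a control group. It leaves out, among others, Dnajb11, Canx, Trib3 and Fgf21, which did pass in such a comparison. All stretches are printed 5′ to 3′ along the gene's strand, with the match in capitals and 12 bases on each side. A match in the reverse orientation reads as the reverse complement of the letters given.
Hspa5, chr2:34772013-34772055, plus strand, ERSE: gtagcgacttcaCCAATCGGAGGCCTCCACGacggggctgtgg
Dnajc3, chr14:118937815-118937857, plus strand, ERSE: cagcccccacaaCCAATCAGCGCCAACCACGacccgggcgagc
Pdia6, chr12:17266479-17266521, plus strand, ERSE: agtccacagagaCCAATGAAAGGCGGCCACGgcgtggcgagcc
Creld2, chr15:88819508-88819550, plus strand, ERSE reversed: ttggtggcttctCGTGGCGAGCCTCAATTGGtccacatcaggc
Derl3, chr10:75893230-75893272, plus strand, ERSE reversed: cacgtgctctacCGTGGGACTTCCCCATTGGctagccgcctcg
Herpud1, chr8:94386365-94386399, plus strand, ERSE-II: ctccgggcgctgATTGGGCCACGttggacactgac
Herpud1, chr8:94386305-94386336, plus strand, CARE reversed: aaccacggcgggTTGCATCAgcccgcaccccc
Asns, chr6:7693213-7693244, minus strand, CARE: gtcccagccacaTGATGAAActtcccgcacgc
Chac1, chr2:119351037-119351068, plus strand, CARE reversed: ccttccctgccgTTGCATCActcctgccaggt
Atf3, chr1:191183424-191183455, minus strand, CARE reversed: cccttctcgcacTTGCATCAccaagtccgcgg
Ppp1r15a, chr7:45526261-45526292, minus strand, CRE: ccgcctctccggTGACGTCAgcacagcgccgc
A match describes these letters and not a bound site. Tested genes outside the 35 that hold an element gave the following values. With ERSE, 2 of 10 rose and 1 fell in peritumoral hepatocytes, and 3 of 9 rose and 2 fell at both times after TAA. With ERSE-II, 2 of 6 fell in peritumoral hepatocytes, 1 rose and 2 fell at 24 h, and 4 fell at 48 h. With UPRE, 19.6% of 102 rose and 21.6% fell in peritumoral hepatocytes. Of 105 in livers, 29.5% and 18.1% did at 24 h and 21.9% and 21.9% at 48 h. With CARE, 17.7% of 271 rose and 9.96% fell in peritumoral hepatocytes. Of 276 in livers, 24.6% and 21.7% did at 24 h and 29.3% and 23.6% at 48 h. With CRE, 13.8% of 355 rose and 10.7% fell in peritumoral hepatocytes. Of 349 in livers, 17.5% and 21.8% did at 24 h and 20.1% and 26.4% at 48 h. Of all such genes with a window, 18.6% rose and 10.6% fell in peritumoral hepatocytes, 21.5% and 20.8% at 24 h and 24.7% and 24.2% at 48 h.

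**Figure D1:**
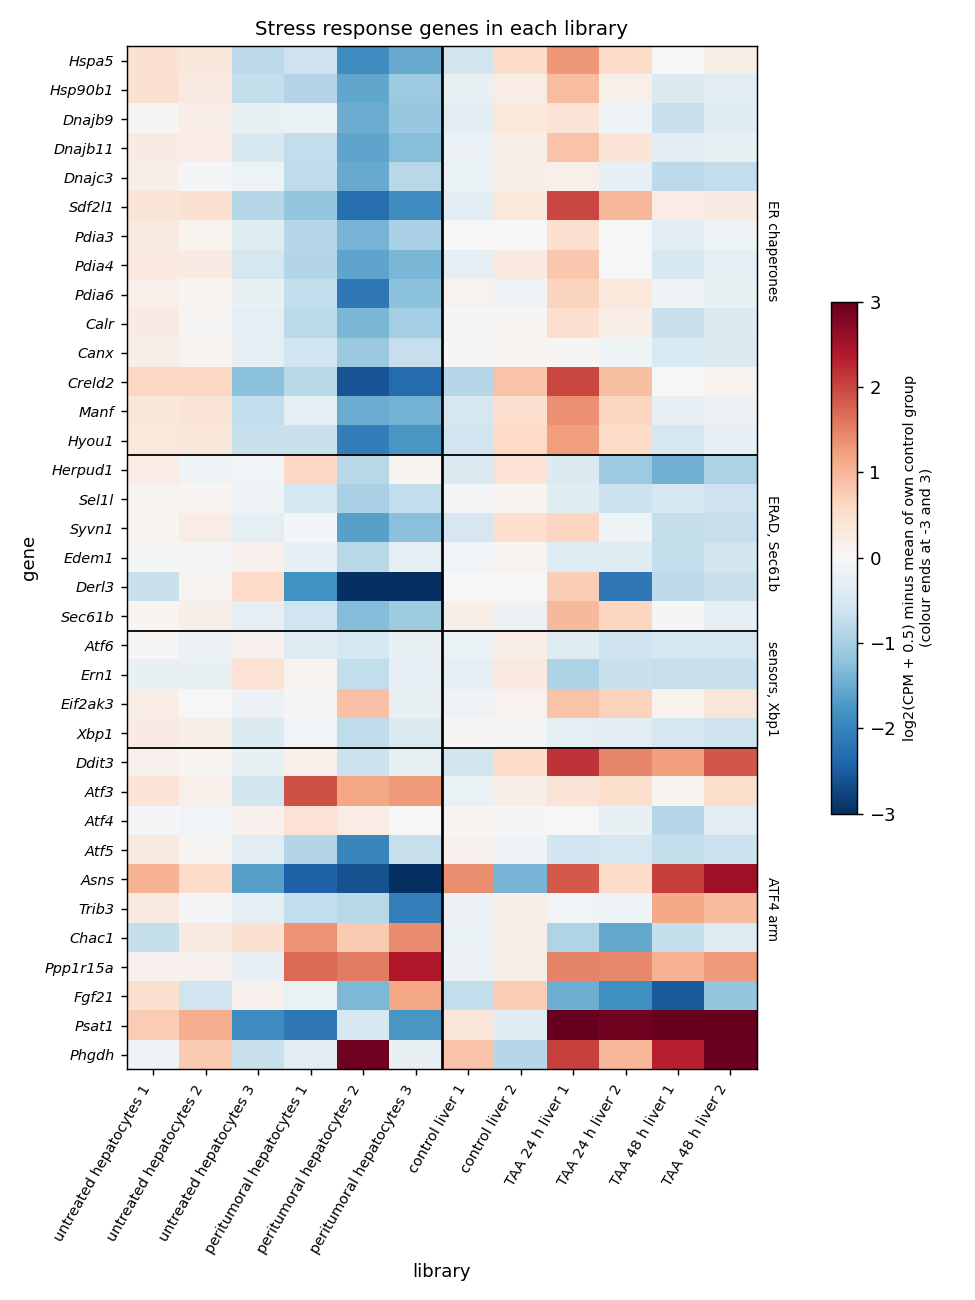
Colour shows log2(CPM + 0.5) of each of the 35 genes (rows, ordered by role) in each of the 12 libraries (columns), minus the mean of the library's own control group, and the vertical line separates hepatocytes from livers. The 14 chaperones are below their controls in the peritumoral libraries and above them in the first 24 h library, while Ppp1r15a is above its controls in all 7 peritumoral and TAA libraries.

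Peritumoral hepatocytes held less ER chaperone transcript than untreated hepatocytes, while the ATF4 arm split. Of the 35 genes, 2 rose and 10 fell, where 19.0% of all genes tested rose and 10.2% fell, 29.2% in all. Of the 14 chaperones 6 fell and none rose, with a median of -1.22 against -0.02 over all genes tested, and all 14 fold changes were negative with an unadjusted p under 0.05. DESeq2 called 12 of the 14 lower, and 1746 of the 13442 genes tested. Summed over the 14 genes, the level was 15700, 14360 and 8855 CPM in the untreated and 7442, 4104 and 5532 CPM in the peritumoral libraries, so the groups did not overlap. Because these are bulk samples, fewer cells of a type and less RNA per cell cannot be told apart.

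Sdf2l1, a partner of BiP's co-chaperones, stood at 164, 175 and 70.2 CPM in untreated and 56.1, 25.9 and 34.4 CPM in peritumoral hepatocytes, and fell by 1.82 ± 0.42 (adjusted p = 0.0224). All 3 peritumoral libraries lay below the lowest untreated library, replicate 3. Dnajb11, an ER J-domain co-chaperone of BiP, went from 310.4, 305 and 188 CPM to 156, 86.2 and 107 CPM, a change of -1.20 ± 0.30 (adjusted p = 0.0261). Dnajc3 (p58IPK), a further BiP co-chaperone, went from 668, 573 and 531 CPM to 347, 206 and 331 CPM, or -1.0 ± 0.26 (adjusted p = 0.0306). In both genes the lowest level was that of peritumoral replicate 2 and the groups did not overlap.

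Protein disulfide isomerases, which form and shuffle disulfide bonds, moved likewise. Pdia4 was at 621, 607 and 353 CPM in untreated and 278, 169 and 196 CPM in peritumoral libraries (-1.30 ± 0.31, adjusted p = 0.0232). Pdia3 was at 1706, 1514 and 1091 against 775, 536 and 714 CPM (-1.09 ± 0.32, adjusted p = 0.0415). Pdia6 was at 1100, 1033 and 854 against 593, 225 and 419.6 CPM (-1.27 ± 0.38, adjusted p = 0.0466). None of the 3 genes overlapped between the groups, and in each the lowest value was that of peritumoral replicate 2.

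Hspa5 did not pass. It stood at 3414, 3149 and 1443 CPM in untreated and 1624, 682 and 869 CPM in peritumoral hepatocytes, a change of -1.33 ± 0.53 (adjusted p = 0.105), and peritumoral replicate 1 lay above untreated replicate 3. The other 7 chaperones ranged from -1.92 ± 0.65 for Creld2, a secreted ER-stress protein (adjusted p = 0.0653), to -0.80 ± 0.25 for the lectin chaperone Canx (adjusted p = 0.0523). Of these, Hsp90b1, Calr, Canx and Hyou1, a large Hsp70-related chaperone, did not overlap between the groups, and Dnajb9, Creld2 and Manf did. Over all genes tested, 24.5% lay lower without overlap, against 10 of 14 chaperones.

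Of the 6 genes of ERAD and translocation 3 fell. Derl3, a derlin of the channel that returns misfolded proteins to the cytosol, stood at 11.03, 18.8 and 26.8 CPM in untreated and 4.73, 0.83 and 1.73 CPM in peritumoral hepatocytes (-2.97 ± 0.67, adjusted p = 0.0197). Sec61b, a subunit of the protein translocation channel, went from 80.5, 87.6 and 64.7 CPM to 50.5, 31.0 and 36.4 CPM (-0.98 ± 0.22, adjusted p = 0.0210). Sel1l, the adaptor of the ERAD ubiquitin ligase, went from 300, 293 and 257 CPM to 198, 143 and 169 CPM (-0.74 ± 0.18, adjusted p = 0.0264). All 3 were lower in each peritumoral library. The ligase gene Syvn1 (-0.82 ± 0.42) and the mannosidase-like gene Edem1 (-0.43 ± 0.20) did not pass, nor did Herpud1, an ERAD scaffold, at 0.07 ± 0.37.

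None of the 4 sensor genes passed in edgeR or in DESeq2, and 1, Atf6, had an unadjusted p under 0.05. Xbp1 stood at 279.8, 269 and 177 CPM in untreated and 223, 139.8 and 174 CPM in peritumoral libraries (-0.43 ± 0.26, adjusted p = 0.246), with overlap. The other values were -0.38 ± 0.16 for Atf6, -0.30 ± 0.28 for Ern1 and 0.31 ± 0.30 for Eif2ak3. Counts per gene carry no information on Xbp1 splicing or on phosphorylation of the sensors.

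Within the ATF4 arm 2 of 11 genes rose and 1 fell, with a median of 0.16. Ppp1r15a (GADD34), the phosphatase subunit that reverses eIF2α phosphorylation, stood at 70.1, 69.7 and 54.2 CPM in untreated and 211, 190.1 and 341 CPM in peritumoral hepatocytes (1.94 ± 0.27, adjusted p = 0.00497). Atf3, a stress-induced transcription factor, went from 171, 142 and 87.0 CPM to 483, 286 and 311 CPM (1.43 ± 0.32, adjusted p = 0.0199). Asns went the other way, from 108, 77.0 and 16.4 CPM to 9.15, 8.05 and 4.80 CPM (-3.19 ± 0.67, adjusted p = 0.0159). In each of these 3 genes the groups did not overlap, and the lowest untreated Asns level was again that of replicate 3.

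The factors at the head of the arm did not pass. Atf4 itself stood at 122, 116 and 135 CPM in untreated and 167, 145 and 124 CPM in peritumoral libraries (0.22 ± 0.16, adjusted p = 0.347). Ddit3 stood at 17.2, 16.7 and 13.4 against 17.6, 9.79 and 13.4 CPM (-0.21 ± 0.25, adjusted p = 0.561). Both overlapped between the groups. The serine synthesis genes did not pass either: Psat1 was at 34.2, 43.1 and 5.11 against 4.12, 14.1 and 5.61 CPM (adjusted p = 0.135), and Phgdh at 1.73, 3.66 and 1.02 against 1.45, 17.7 and 1.56 CPM (adjusted p = 0.269). The 17.7 CPM of Phgdh was in peritumoral replicate 2, the library high in biliary markers. The remaining values were -1.10 ± 0.36 for the transcription factor gene Atf5, -1.21 ± 0.41 for the pseudokinase gene Trib3, 1.31 ± 0.45 for Chac1 and 0.17 ± 0.70 for the secreted hormone gene Fgf21.

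Of these 12 calls only that on Ppp1r15a passed whichever library was left out. With untreated replicate 1 or 2 or peritumoral replicate 3 left out, none of the 14 chaperones was called. With peritumoral replicate 2 left out 1 was called, and with untreated replicate 3 or peritumoral replicate 1 left out 9. The 3 ERAD and translocation calls became 1 without untreated replicate 1 or peritumoral replicate 2, none without untreated replicate 2 or peritumoral replicate 3, 2 without untreated replicate 3 and 4 without peritumoral replicate 1. Atf3 did not pass without untreated replicate 1 or 2 (adjusted p up to 0.0746), nor Asns without either of those or peritumoral replicate 3 (up to 0.0582).

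Markers of other liver cells were mostly higher in peritumoral than in untreated hepatocytes. Summed over 8 genes each, endothelial markers were at 150 to 257 RPM in untreated and 858 to 1384 RPM in peritumoral libraries with 8 of 8 called higher, stellate markers at 55.03 to 110.3 and 904 to 3165 RPM with 7 of 8, macrophage markers at 128 to 286 and 941 to 2512 RPM with 7 of 8, and biliary markers at 50.7 to 73.6 and 780 to 10330 RPM with 6 of 8. No gene of these lists was at 0 except 1 biliary gene in untreated replicate 3. The 6 neutrophil markers summed to 0.924 to 3.26 RPM in untreated, with 2 at 0 in each library, and 17.6 to 37.1 RPM in peritumoral libraries, with 6 of 6 called higher. The 6 plasma cell markers summed to 292 to 314 and 257 to 409.7 RPM, with 3 of 4 tested called higher and 1 at 0 in every library. Most of that sum was Sdc1, at 306.5, 280 and 390.8 CPM in untreated and 228.7, 202.8 and 357.8 CPM in peritumoral libraries. Sdc1 did not pass, and the 3 called were Igj, Ighm and Igha, higher by 2.68, 3.13 and 2.675. Of 10 hepatocyte markers none passed in edgeR, with 1 at an unadjusted p under 0.05, and their sum was 98320 to 99940 against 82760 to 144300 RPM. The part of these cells in the lower chaperone and Asns levels was not tested.

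Other genes of the pathways gave the following counts. Of 27 further ER folding and translocation genes 15 fell and 1 rose, and of 16 further ERAD and ER stress regulator genes 7 fell. Of 8 eIF2 kinase, eIF2 phosphatase, eIF2 and eIF2B genes 4 fell. Over all 89 genes tested in these and the next lists, 5.62% rose and 41.6% fell, where 19.0% and 10.2% of all genes did. Fkbp11, an ER prolyl isomerase, fell by 2.61 ± 0.39 from 88.7, 101 and 44.8 CPM to 17.6, 8.75 and 12.1 CPM (adjusted p = 0.00597), and the ERAD lectin gene Edem2 fell by 1.34 ± 0.22 (adjusted p = 0.00760). Both passed whichever library was left out. Of 12 cytosolic tRNA synthetase genes, many of them ATF4 targets, 7 fell and none rose, among them Iars (-1.09 ± 0.18), which did not pass without untreated replicate 1, and Nars (-1.28 ± 0.26), which did not pass without untreated replicate 1 or 2. The 15 lower ER folding genes became 1 without untreated replicate 1 or 2, 5 without peritumoral replicate 2 and 3 without its replicate 3. The 7 lower ERAD genes became 1 and 3 without untreated replicate 1 and 2 and 4 without peritumoral replicate 2 or 3, and the 7 synthetases became 0, 1, 2 and 2 in that order. The 4 eIF2 genes became 0 without untreated replicate 1 or 2, 1 without peritumoral replicate 2 and 2 without its replicate 3. Of 26 further ATF4 target genes tested 4 rose and 4 fell, which became 1 and 1 without untreated replicate 1 or 2, and 2 fell without peritumoral replicate 3. Stc2, a stanniocalcin hormone, was at 0.0578, 0.0581 and 0 CPM in untreated and 4.73, 113 and 4.22 CPM in peritumoral libraries. Gdf15, a stress hormone, was at 42.0, 26.7 and 56.0 against 382, 106 and 215 CPM (2.49 ± 0.50, adjusted p = 0.0143), lost without untreated replicate 1 or 2. Aldh1l2, a mitochondrial folate enzyme, fell by 2.18 ± 0.38 (adjusted p = 0.00902).

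In other compartments the medians were lower too, at -0.76 for 8 mitochondrial chaperone and protease genes and -0.78 for 11 cytosolic heat shock genes. Of the 8 mitochondrial genes 6 fell, among them Hspa9, the mitochondrial Hsp70 (-1.12 ± 0.25, adjusted p = 0.0187), which did not pass without peritumoral replicate 3. The 6 became 0 without untreated replicate 1 or 2, 2 without peritumoral replicate 2 and 1 without its replicate 3. Of the 11 heat shock genes 8 had negative values and 5 an unadjusted p under 0.05, while 1 rose and 1 fell. The inducible Hsp70 gene Hspa1a stood at 3.06, 6.40 and 9.05 CPM in untreated and 55.6, 19.8 and 25.6 CPM in peritumoral libraries (2.45 ± 0.53, adjusted p = 0.0174), a call lost without untreated replicate 1 or 2.

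**Figure D2:**
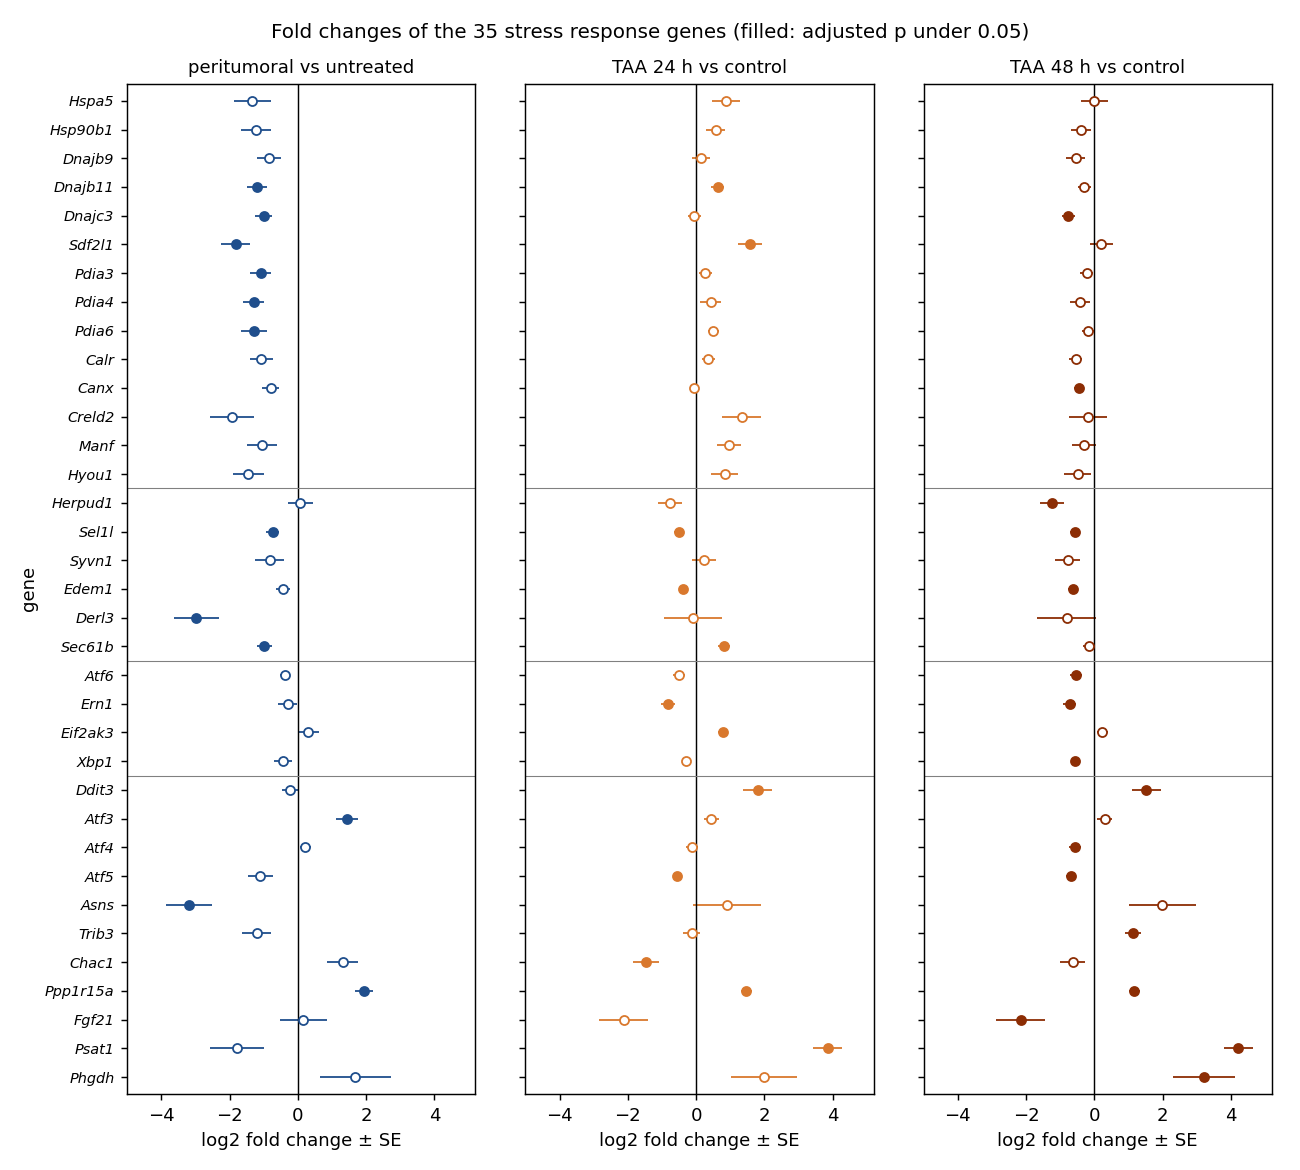
Points give the log2 fold change of each of the 35 genes in 3 comparisons with a control group, bars its SE, and filled points passed at an adjusted p under 0.05. In the peritumoral panel all 14 chaperones (top block) lie left of 0, and in the TAA panels the largest positive values are those of Psat1, at 3.85 and 4.22.

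At 24 h after TAA, a few genes of the ER branch and of the ATF4 arm rose, led by Psat1, Ddit3, Sdf2l1 and Ppp1r15a, while Ern1, Chac1 and Atf5 fell. Of the 35 genes 7 rose and 5 fell, where 21.3% of all genes tested rose and 20.5% fell, 41.8% in all, so the members' shares, 20.0% and 14.3%, were close to the background. Of the 14 chaperones 2 rose and none fell, with a median of 0.54 against 0.02 over all genes tested. DESeq2 called 5 higher, and 2704 of the 13497 genes tested. Of the ATF4 arm 3 rose and 2 fell, with a median of 0.45. Both comparisons with control livers below use the same 2 control libraries.

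Sdf2l1 stood at 29.3 and 45.0 CPM in control livers and 148 and 72.8 CPM at 24 h (1.57 ± 0.35, adjusted p = 0.0128). Dnajb11 stood at 126 and 162 against 259.6 and 189 CPM (0.64 ± 0.19, adjusted p = 0.0365). Hspa5 did not pass, at 984 and 2084 against 3514 and 2100 CPM (0.87 ± 0.40, adjusted p = 0.122). In all 3 genes the first control library was the lowest and the first 24 h library the highest, and the groups did not overlap, though for Hspa5 the second libraries of both groups lay close together. Of the 14 chaperones 7 were higher without overlap and none lower, where 38.3% of all genes were higher and 35.8% lower without overlap. The summed level of the 14 was 6602 and 8948 CPM in controls and 13400 and 8965 CPM at 24 h.

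Sec61b rose from 49.4 and 38.5 CPM to 85.8 and 68.8 CPM (0.81 ± 0.18, adjusted p = 0.0119). Sel1l went from 282 and 309 CPM to 229 and 189 CPM (-0.50 ± 0.14, adjusted p = 0.0270), and Edem1 from 313 and 352 CPM to 252 and 258 CPM (-0.38 ± 0.13, adjusted p = 0.0489). Scaling by library totals alone, which moved the median of all genes to 0.53, put them at 0.01 and 0.13, still below that median. Herpud1 (-0.77 ± 0.35), Syvn1 (0.23 ± 0.36) and Derl3 (-0.09 ± 0.84) did not pass.

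The sensors parted. Eif2ak3 rose from 21.6 and 24.9 CPM to 42.5 and 37.6 CPM (0.79 ± 0.16, adjusted p = 0.00899). Ern1 fell from 119 and 178 CPM to 77.1 and 92.0 CPM (-0.82 ± 0.20, adjusted p = 0.0188). Neither gene overlapped between the groups. Xbp1 did not pass, at 274 and 259.9 against 218 and 214 CPM (-0.31 ± 0.11, adjusted p = 0.0641), nor did Atf6 (-0.50 ± 0.17, adjusted p = 0.0539).

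In the ATF4 arm Psat1 changed most. It stood at 1.13 and 0.50 CPM (11 and 5 counts) in control livers and 14.8 and 8.94 CPM at 24 h (3.85 ± 0.42, adjusted p = 0.00109). Ddit3 rose from 7.01 and 15.4 CPM to 48.5 and 29.8 CPM (1.80 ± 0.43, adjusted p = 0.0163). Ppp1r15a rose from 36.4 and 47.2 CPM to 118 and 114 CPM (1.47 ± 0.16, adjusted p = 0.00112). All 3 were higher in both 24 h libraries than in either control, and for Ppp1r15a the 24 h libraries lay within 4 CPM of each other.

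Chac1 fell from 3.20 and 4.31 CPM to 1.76 and 0.963 CPM (-1.46 ± 0.39, adjusted p = 0.0241), and Atf5 from 524 and 443 CPM to 325 and 332 CPM (-0.56 ± 0.13, adjusted p = 0.0162). Atf4 did not pass, at 162 and 148 against 153 and 132 CPM (-0.12 ± 0.19, adjusted p = 0.617). Asns did not pass, at 3.61 and 0.10 against 5.14 and 1.79 CPM (0.90 ± 1.01, adjusted p = 0.500). The Asns groups overlapped, and the second control library held 1 Asns count. Fgf21 (-2.13 ± 0.71, adjusted p = 0.0503), Phgdh (1.99 ± 0.96), Atf3 (0.45 ± 0.21) and Trib3 (-0.13 ± 0.24) did not pass.

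Psat1 and Ppp1r15a passed whichever library was left out. Without the first 24 h library 2 members were called higher and 3 lower, without the second 9 and 1, and without the second control library 10 and 2. Ddit3 and Sdf2l1 did not pass without the first 24 h or the first control library (adjusted p up to 0.0977 and 0.0625), nor Sec61b without the first 24 h or second control library, nor Eif2ak3 and Ern1 without the first 24 h library. Chac1 did not pass without the second 24 h or second control library, and Atf5 without either 24 h library or the first control. The 48 h libraries enter this fit through the estimate of spread, and without either of them Dnajb11, Sel1l and Edem1 did not pass. Dnajb11 did not pass without the first 24 h or first control library either, nor Sel1l without the second of each, nor Edem1 without any of the 6.

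At 48 h after TAA the ER branch and the sensors were at or below control, whereas the serine synthesis genes, Ddit3, Trib3 and Ppp1r15a were higher. Of the 35 genes 5 rose and 11 fell, where 25.0% of all genes rose and 23.9% fell, 48.9% in all. All 5 that rose belong to the ATF4 arm, in which 3 others fell. Of the 14 chaperones 2 fell and none rose in edgeR, with 3 at an unadjusted p under 0.05. DESeq2 called 3 of them lower, and 2802 of the 13497 genes tested. Without overlap between the groups, 9 of the 14 were lower and none higher, and 6 of the 11 ATF4 arm genes were higher and 4 lower, where 37.5% of all genes were higher and 38.9% lower. The chaperones' median was -0.35 and that of the ATF4 arm 1.13, against -0.03 over all genes.

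Psat1 stood at 14.3 and 16.3 CPM at 48 h against the 1.13 and 0.50 CPM of controls (4.22 ± 0.42, adjusted p = 0.000536). Phgdh stood at 4.04 and 6.47 CPM against 1.13 and 0 CPM (11 and 0 counts), which gave 3.21 ± 0.92 (adjusted p = 0.0267). Asns did not pass, at 6.10 and 8.61 against 3.61 and 0.10 CPM (1.99 ± 0.99, adjusted p = 0.138). In these amino acid synthesis genes both 48 h libraries lay above both controls, and the second control library was the lowest of the 6 liver libraries.

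Acinar markers varied widely among these libraries, and 10 of 11 were called lower at 24 h. At 48 h none of the 11 was called in edgeR or had an unadjusted p under 0.05. The second control library, with the least Asns and Phgdh, had 60.9 RPM of them, and the second 48 h library, with the most of both, 14010 RPM. Between these ends the order was not kept. The first control had more acinar RNA than the first 48 h library (7003 against 3469 RPM) but less Asns (3.61 against 6.10 CPM) and less Phgdh (1.13 against 4.04 CPM). At 24 h, with acinar markers under 8 RPM, Asns stood at 5.14 and 1.79 CPM, Phgdh at 3.23 and 1.31 CPM and Psat1 at 14.8 and 8.94 CPM. The part of acinar RNA in the 48 h values was not tested.

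**Figure D3:**
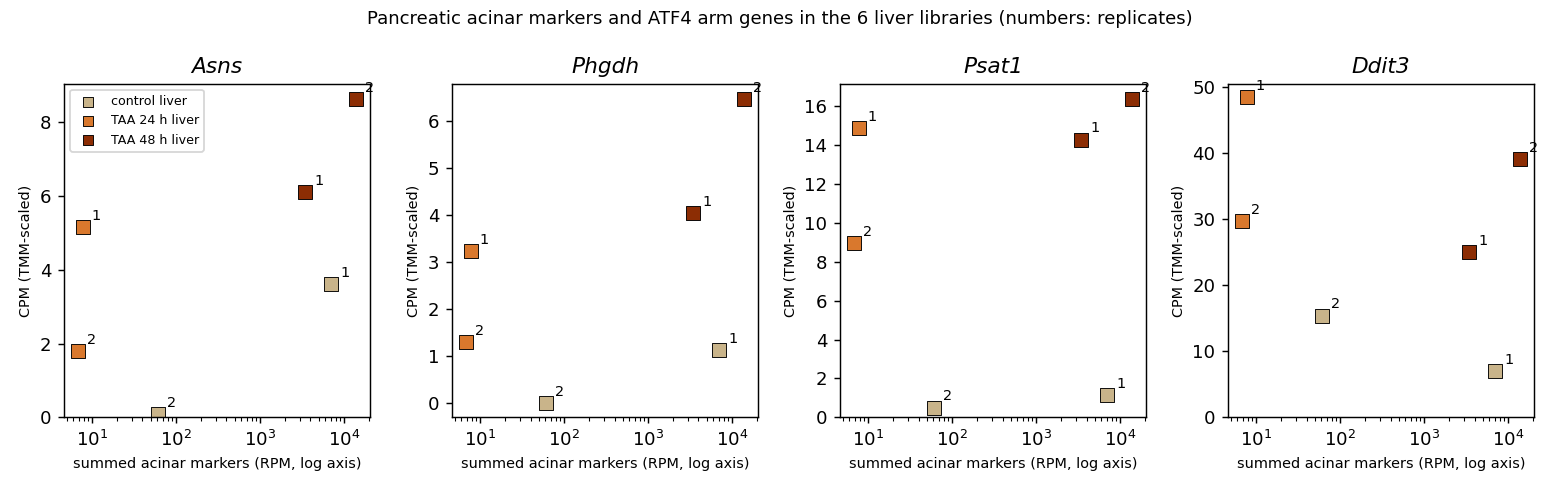
Each panel plots the level of one gene (CPM, linear axis) against the summed RPM of 11 acinar markers (log axis) in the 6 liver libraries, numbered by replicate. Psat1 and Ddit3 are high in the 24 h libraries at the left, whereas the highest Asns and Phgdh levels, 8.61 and 6.47 CPM, are in the 48 h library at the far right.

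Ddit3 stood at 25.1 and 39.2 CPM against 7.01 and 15.4 CPM in controls (1.52 ± 0.42, adjusted p = 0.0243). Trib3, a pseudokinase gene induced by ATF4 and CHOP, stood at 8.66 and 7.60 against 3.20 and 4.21 CPM (1.13 ± 0.24, adjusted p = 0.00808). Ppp1r15a stood at 86.2 and 101 against 36.4 and 47.2 CPM (1.17 ± 0.16, adjusted p = 0.00159). No control library reached the lower 48 h library in any of these genes.

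The other 3 called genes of the arm moved the other way. Atf5 stood at 291 and 306 against 524 and 443 CPM (-0.70 ± 0.13, adjusted p = 0.00562). Atf4 stood at 86.2 and 123 against 162 and 148 CPM (-0.57 ± 0.19, adjusted p = 0.0420). Fgf21 stood at 0.577 and 2.27 against 3.20 and 9.92 CPM (-2.16 ± 0.71, adjusted p = 0.0422). Scaling by library totals alone, which moved the median of all genes to 0.68, put Atf5 and Atf4 at 0.01 and 0.14, still below that median. ATF4 is known to be controlled mainly at translation, which transcript counts do not show.

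Xbp1 stood at 188 and 175 CPM at 48 h against 274 and 259.9 CPM in controls (-0.56 ± 0.11, adjusted p = 0.00671). Ern1 stood at 90.1 and 90.0 against 119 and 178 CPM (-0.72 ± 0.20, adjusted p = 0.0235), and Atf6 at 60.5 and 61.6 against 75.7 and 102 CPM (-0.54 ± 0.17, adjusted p = 0.0371). All 3 lay below both controls. Under scaling by library totals alone Xbp1 stood at 0.16 and Atf6 at 0.17. Eif2ak3 did not pass (0.24 ± 0.16).

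Among ERAD genes Herpud1 stood at 142 and 199.5 against 284 and 523 CPM (-1.24 ± 0.35, adjusted p = 0.0258). Edem1 (-0.64 ± 0.13, adjusted p = 0.00657) and Sel1l (-0.58 ± 0.14, adjusted p = 0.0133) were lower too, at 0.07 and 0.14 by library totals alone. The called chaperones were Dnajc3, at 254 and 264 against 382 and 501 CPM (-0.77 ± 0.19, adjusted p = 0.0149), and Canx, at 481 and 489 against 632 and 694 CPM (-0.45 ± 0.14, adjusted p = 0.0316), which stood at 0.26 by library totals alone. Hspa5 did not pass, at 1437 and 1618 against 984 and 2084 CPM (-0.01 ± 0.40, adjusted p = 0.992), and its 48 h libraries lay between the controls.

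Psat1, Ppp1r15a and Atf5 passed whichever library was left out. The 11 members called lower became 2 without the first 48 h library and 4 without either the second 48 h or the second control library, and the 5 called higher became 3 without either 48 h library. Phgdh did not pass without either 48 h library or the second control library (adjusted p up to 0.0961), Ddit3 without the second 48 h or first control library (up to 0.118), Trib3 and Edem1 without the first 48 h library (0.0519 and 0.0541) and Xbp1 without the second (0.0596). Dnajc3, Canx, Herpud1 and Ern1 did not pass without either 48 h library or the second control, Atf6 without any of those or the first 24 h library, Sel1l without either 48 h library, Fgf21 without either 24 h library, the first 48 h or the second control, and Atf4 without any library but the second at 48 h.

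**Figure D4:**
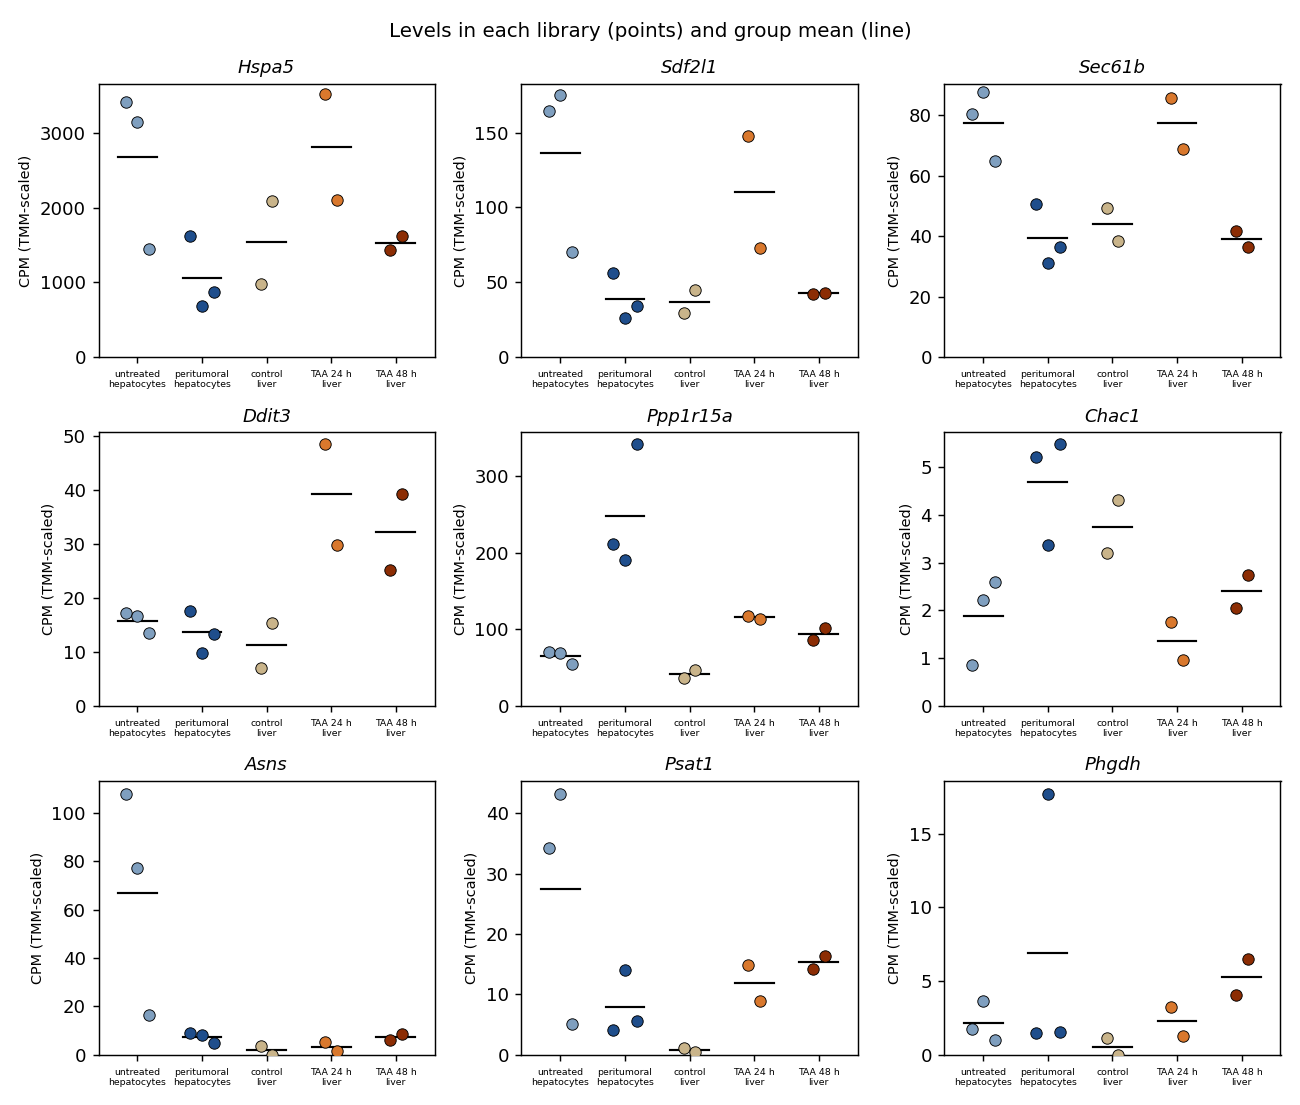
Points give the level of 9 genes (CPM, linear axes from 0) in each library of the 5 groups, and lines the group means; hepatocytes and livers were scaled separately. Ppp1r15a lies above its controls in all 3 treated or peritumoral groups, whereas Asns is lowest relative to its controls in peritumoral hepatocytes, at 9.15, 8.05 and 4.80 CPM.

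Between the times, 1 member was higher at 48 h than at 24 h and 3 lower, where 4.96% of all genes were higher and 2.36% lower, 7.33% in all. Trib3 rose from 3.45 and 3.30 CPM to 8.66 and 7.60 CPM (1.26 ± 0.23, adjusted p = 0.0319). Sec61b fell from 85.8 and 68.8 CPM to 41.7 and 36.5 CPM (-0.98 ± 0.18, adjusted p = 0.0300), Dnajb11 from 259.6 and 189 CPM to 112 and 122 CPM (-0.94 ± 0.19, adjusted p = 0.0402), and Calr from 1831 and 1474 CPM to 808 and 966 CPM (-0.90 ± 0.19, adjusted p = 0.0422). All 14 chaperones were lower in both 48 h libraries than in either 24 h library, where 30.0% of all genes were lower without overlap, and their median was -0.89 against 0.01 over all genes. Of these 14, only Dnajb11 and Calr passed in edgeR, and 13 had an unadjusted p under 0.05. DESeq2 called 8 of them lower, and 539 of the 13497 genes tested. None of the 4 calls remained without any one of the 4 TAA libraries. Hspa5 stood at 3514 and 2100 against 1437 and 1618 CPM (-0.88 ± 0.40, adjusted p = 0.213), Xbp1 at 218 and 214 against 188 and 175 CPM (-0.25 ± 0.11, adjusted p = 0.203), and Atf4 at 153 and 132 against 86.2 and 123 CPM (-0.44 ± 0.19, adjusted p = 0.182). Ddit3 (-0.28 ± 0.41) and Asns (1.09 ± 0.91) did not pass.

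Markers of other cells moved in livers as well. Stellate markers stood at 72.4 and 132 RPM in controls, 514 and 553 RPM at 24 h and 1674 and 2307 RPM at 48 h, with 7 and 8 of 8 called higher. Macrophage markers stood at 44.6 and 85.2, 308 and 366, and 567 and 820 RPM, with 5 and 8 of 8 called. Endothelial markers stood at 126 and 151, 300 and 409, and 360 and 485 RPM, with 5 and 6 of 8 called. No gene of these 3 lists was at 0. Biliary markers stood at 59.1 and 64.8, 147 and 165, and 209 and 313 RPM, with 4 of 7 tested called higher at 24 h and 2 higher and 1 lower at 48 h. All 6 neutrophil markers were at 0 in both controls, and their sum was 6.31 and 3.94 RPM at 24 h and 4.98 and 3.38 RPM at 48 h, with 2 of 2 tested called higher at both times. Of 10 hepatocyte markers 4 were called lower at 24 h and 5 at 48 h. The part of these cells in the values of the 35 genes was not tested.

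Of 88 tested genes of the wider pathway lists, 27.3% rose and 20.5% fell at 24 h and 22.7% rose and 31.8% fell at 48 h, where 21.3% and 20.5%, then 25.0% and 23.9%, of all genes did. The cystine transporter gene Slc7a11, an ATF4 target, stood at 0.103 and 0 CPM in controls (1 and 0 counts, under the floor of 3), 2.06 and 2.06 CPM at 24 h and 8.99 and 7.94 CPM at 48 h, so no fold is given. It was called higher at both times (adjusted p = 0.00146 and 0.000246), whichever library was left out. Of 25 further ATF4 targets tested, 6 rose and 4 fell at 24 h and 8 rose and 7 fell at 48 h. The 4 became 2 without the first 24 h library, and the 7 became 4 without the first 48 h library. Psph, the last enzyme of serine synthesis, rose by 1.36 ± 0.17 at 24 h (adjusted p = 0.00183), and Slc7a1, a cationic amino acid transporter, by 3.03 ± 0.35 at 48 h (adjusted p = 0.000925). Cth, an enzyme of cysteine synthesis, fell at 24 h from 758 and 473 CPM to 95.1 and 140.0 CPM (-2.39 ± 0.37, adjusted p = 0.00348).

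Of 27 further ER folding and translocation genes 8 rose and 5 fell at 24 h, and 6 rose and 8 fell at 48 h. For these and the lists below, 21.3% of all genes rose and 20.5% fell at 24 h, and 25.0% and 23.9% at 48 h. The 8 higher at 24 h became 5 without the first 24 h or first control library. The 6 higher at 48 h became 1 without the second 48 h library and 2 without either control, and the 8 lower became 5 without the first 48 h library. Dnajc10, an ER disulfide reductase, rose by 1.25 ± 0.14 and 1.10 ± 0.14 (adjusted p = 0.00115 and 0.00116), and Sil1, the nucleotide exchange factor of BiP, fell, at -1.20 ± 0.13 and -1.17 ± 0.13 (adjusted p = 0.00109 and 0.000757). Of 16 further ERAD and regulator genes 3 rose and 5 fell, then 2 rose and 7 fell, with Edem2 at 1.08 ± 0.14 at 24 h and Derl2, a derlin, at -1.24 ± 0.12 at 48 h (adjusted p = 0.00212 and 0.000548). The 5 lower at 24 h became 1 without the first 24 h and 3 without the second control library, the 7 lower at 48 h 4 and 3 without the first and second 48 h library, and the 2 higher 1 without either 48 h or either control library. Of 8 eIF2 kinase, eIF2 phosphatase, eIF2 and eIF2B genes 3 rose and 2 fell, then 2 rose and 2 fell, the last 2 higher becoming 1 without the first 48 h or first control library. The phosphatase subunit gene Ppp1r15b was lower, at -1.06 ± 0.15 and -0.74 ± 0.15 (adjusted p = 0.00271 and 0.00736). Its call at 48 h was lost by library totals alone. Eif2ak2, the kinase PKR, rose by 1.00 ± 0.17 and 0.87 ± 0.17 (adjusted p = 0.00512 and 0.00633). Eif2ak1, the haem-regulated kinase, was lower, at -0.96 ± 0.12 and -0.64 ± 0.12 (adjusted p = 0.00156 and 0.00487), though at 48 h it stood at 0.08 by library totals alone. Of 12 tRNA synthetase genes 4 rose and 2 fell, then 2 rose and 4 fell. Without the first 24 h library 1 rose and 1 fell at 24 h, and without the first 48 h library 1 rose and 1 fell at 48 h. The 4 lower at 48 h became 2 without the second 48 h or first 24 h library, and the 2 higher 1 without the second 48 h or first control library. Hspa1a was high at 24 h only among the livers, at 3.20 and 8.12, 23.7 and 30.0, and 3.54 and 4.94 CPM, with 3 of 11 cytosolic heat shock genes called higher at 24 h and none called in edgeR at 48 h, when 2 had an unadjusted p under 0.05 and DESeq2 called 1 higher. The 3 became 1 without either 24 h library and 6 without the second control, and at 48 h 5 were called higher without the second control and 5 lower without the first. Of 8 mitochondrial chaperone and protease genes 2 fell at 24 h and 8 at 48 h, among them the protease subunit gene Clpx, at -2.28 ± 0.24 and -2.34 ± 0.24 (adjusted p = 0.000998 and 0.000599). The 8 became 4 without the first and 3 without the second 48 h library.

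Set against each other, the chaperone arm and the ATF4 arm lay apart in peritumoral hepatocytes and at 48 h after TAA, and close together at 24 h. The median log2 fold change of the 14 chaperones minus that of the 11 ATF4 arm genes was -1.38 in peritumoral hepatocytes, 0.09 at 24 h and -1.48 at 48 h, as a description with no test. With libraries left out, it ran from -1.61 to -0.97 in peritumoral hepatocytes, from 0.09 to 0.70 at 24 h and from -1.54 to -1.16 at 48 h. The mean log2 ratio of the chaperones to their own control group was -0.72, -1.72 and -1.32 in the peritumoral libraries, against 0.30, 0.24 and -0.54 in the untreated ones. For the ATF4 arm it was -0.10, -0.12 and -0.18 against 0.24, 0.22 and -0.46, so the untreated libraries spanned the peritumoral range. In livers the chaperone value was 0.91 and 0.30 at 24 h and -0.34 and -0.22 at 48 h, against -0.29 and 0.29 in controls. The ATF4 arm value was 0.77 and 0.33, then 0.60 and 1.03, against 0.07 and -0.07.

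Single genes of the ATF4 arm differed between the settings. Ppp1r15a rose in all 3 comparisons with a control group, by 1.94, 1.47 and 1.17. Ddit3 and Psat1 rose at both times in livers, but stood at -0.21 and -1.79 without passing in peritumoral hepatocytes. Genes with the same promoter element parted too. Of the 5 ATF4 arm genes holding CARE, Atf3 rose and Asns fell in peritumoral hepatocytes, Chac1 fell at 24 h, and Trib3 rose and Fgf21 fell at 48 h.

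**Figure D5:**
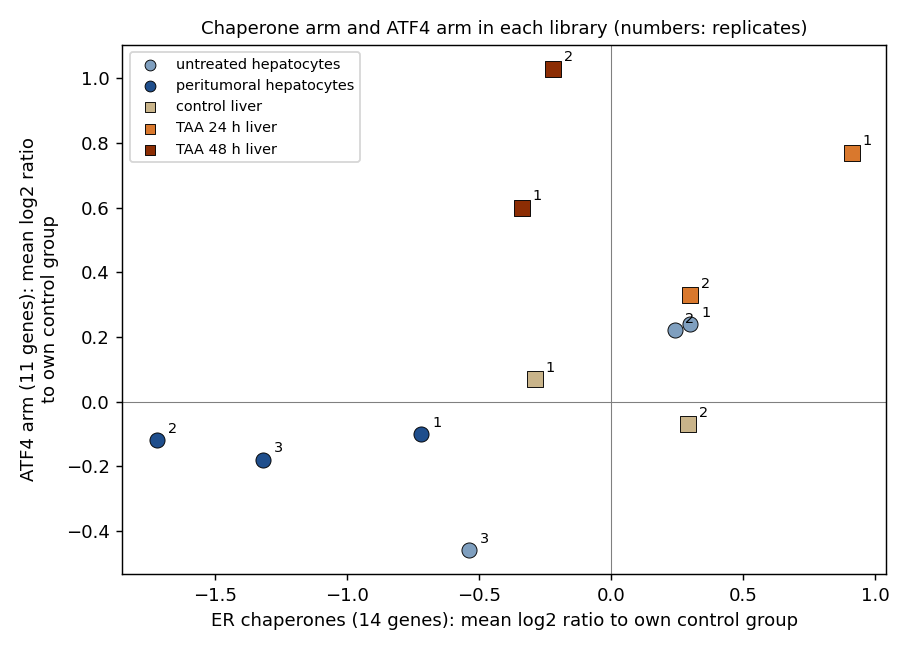
Each point is 1 library, with the mean log2 ratio of the 14 chaperones to the library's own control group on the horizontal and that of the 11 ATF4 arm genes on the vertical axis. Peritumoral libraries lie at the left, between -1.72 and -0.72 on the chaperone axis, and the 48 h libraries lie at 0.60 and 1.03 on the ATF4 axis with chaperones at -0.34 and -0.22.

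The difference between the 24 h response of livers and the peritumoral response of hepatocytes was tested directly in a fit of all 12 libraries (the change at 24 h minus the peritumoral change). It was called higher in 13 members and lower in 1, where 12.1% of all genes were called higher and 9.03% lower, 21.1% in all. Of the 14 chaperones 10 were called, all higher, with a median of 1.90 against -0.01 over all genes. Sdf2l1 differed by 3.51 ± 0.68 (adjusted p = 0.0102), Dnajb11 by 1.96 ± 0.44 (adjusted p = 0.0158) and the translocation gene Sec61b by 1.91 ± 0.35 (adjusted p = 0.00839). Hspa5 did not pass, at 2.33 ± 0.78 (adjusted p = 0.0583). In the ATF4 arm Psat1 (5.79 ± 1.23, adjusted p = 0.0135) and Ddit3 (2.13 ± 0.54, adjusted p = 0.0232) were higher and Chac1 lower (-2.68 ± 0.65, adjusted p = 0.0204), while Ppp1r15a, which rose in both settings, stood at -0.36 ± 0.37 (adjusted p = 0.521). None of the 4 sensor genes passed in edgeR or DESeq2, and none had an unadjusted p under 0.05.

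Mouse stock, the kind of injury and, by the series design, the sample material differ between the systems together and cannot be told apart. Sex transcripts differed largely along the same line. Xist was at 196 to 456 RPM and Ddx3y at 0 in all 6 livers, as in peritumoral replicate 2, whereas the other 5 hepatocyte libraries held Ddx3y. Only the call on Sec61b passed whichever library was left out; without the first 24 h library 1 member was called and without the second 7. Leaving out the first or second control library gave 2 and 5 calls, either 48 h library or peritumoral replicate 3 gave 8, and either of the first 2 untreated replicates gave 5. Leaving out untreated replicate 3 gave 18 and peritumoral replicate 1 gave 19.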

How the data were processed

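Raw gene-level counts deposited by the authors entered every test, and their RPM table was not used. STAR, DESeq2, mm10 and GRCm38 are named in the submitters' processing notes, with no versions or roles, and no source used here gives the counting annotation or strand setting. Sample titles gave groups and replicate numbers.

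The 6 hepatocyte and 6 liver libraries were fitted separately (13442 and 13497 genes tested) with edgeR 4.0.16 in R 4.3.3, with TMM factors, filterByExpr (minimum count 10, total 15), quasi-likelihood F tests (two-sided), Benjamini-Hochberg adjustment and a prior count of 0.125. The difference of responses came from all 12 libraries (14615 genes). Totals of 9640845 to 18522324 counts set the floors given, which cover counting error only. Replicates of a group differed by more than sampling noise, and each was kept as a separate sample. Alternatives were a minimum count of 50 or none, RLE factors or library totals alone, DESeq2 1.42.0, other libraries in the fit, the replicate number as a block, mean in place of median, ERAD genes added to the chaperones, and each library left out. The arm ratios per library used log2(CPM + 0.5).

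The members, gene lists and promoter elements were chosen with earlier results of these data known. Per library values are given for most called members, at most 6 per role by smallest p, and for Hspa5, Xbp1, Atf4, Ddit3 and Asns. Edem1 and Sel1l were called at 48 h and are given there without them, and Psat1 and Phgdh also have them where they did not pass. Up to 3 called genes of each other list and direction were named. The members' positions and exon lengths are from GENCODE M21, and promoters from RefSeq.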

Additional observations from a re-analysis of the deposited data

Results flagged for a closer look

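The change at 24 h after TAA in livers and the change in peritumoral hepatocytes differed in 14 of the 35 genes by edgeR's test of the difference itself. On the log2 scale the difference (24 h response minus peritumoral response) was 1.92 for Hsp90b1, 1.96 for Dnajb11, 3.51 for Sdf2l1, 1.48 for Pdia3, 1.84 for Pdia4, 1.88 for Pdia6, 1.53 for Calr, 3.38 for Creld2, 2.14 for Manf and 2.4 for Hyou1 among the chaperones. It was 1.91 for Sec61b, and in the ATF4 arm 2.13 for Ddit3, 5.79 for Psat1 and -2.68 for Chac1. All 10 chaperones had negative values in peritumoral hepatocytes and positive ones at 24 h, but of these only Dnajb11 and Sdf2l1 passed in both comparisons. Hsp90b1, Pdia3, Pdia4, Pdia6, Calr, Creld2, Manf and Hyou1 each lost the call under 6 or more of the 12 left-out libraries.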

How the results depend on the processing

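Of 836 results of called members under other settings or with a library left out, 550 kept direction and call, 277 lost the call and 9 changed sign. All sign changes came from scaling by library totals alone, which moved the median of all genes by 0.23 (peritumoral), 0.53 (24 h), 0.68 (48 h) and 0.21 (48 h against 24 h). At 48 h it put Atf4 at 0.14, Atf5 at 0.014, Atf6 at 0.17, Canx at 0.26, Edem1 at 0.072, Sel1l at 0.14, Xbp1 at 0.16, Eif2ak1 at 0.076, Mars at 0.17, Pdia6 at 0.53 and Sec61b at 0.54, and at 24 h Canx at 0.47, Edem1 at 0.13 and Sel1l at 0.013. Under it 18 members were higher at 24 h and 10 at 48 h, and lower were 3 (peritumoral), 0 (24 h), 0 (48 h) and 1 (48 h against 24 h). Of all 13497 genes tested in livers, the same scaling put 6127 higher at 24 h and 7661 at 48 h. Lower were 1228 at 24 h, 971 at 48 h and 181 at 48 h against 24 h. In peritumoral hepatocytes 205 of 13442 genes were lower. DESeq2 called 18 members lower in peritumoral hepatocytes and 10 lower at 48 h against 24 h. Of all genes tested it called 1746 of 13442 and 539 of 13497 lower. With other libraries in the fit 17 were lower in peritumoral hepatocytes, 0 at 24 h, 0 at 48 h and 0 between the times, and 3 were higher at 48 h and 0 between the times. With no count filter or a minimum count of 50, 3 were lower at 24 h. The minimum count of 50 put the chaperone minus ATF4 median at -0.36 at 24 h, with fewer ATF4 arm genes tested. Leaving out 1 library gave 1 to 3 higher and 0 to 14 lower members in peritumoral hepatocytes, 2 to 10 and 1 to 6 at 24 h, 3 to 5 and 2 to 13 at 48 h, 0 to 1 and 0 to 6 between the times, and 1 to 19 unequal responses. The median difference of the arms then ran from -1.61 to -0.97, 0.09 to 0.70 and -1.54 to -1.16. Where a group was left with 1 library, that library was assumed to vary like the others. Whether replicate numbers pair the libraries cannot be settled with 2 or 3 libraries per group. Deviations of same-numbered hepatocyte libraries from their group means correlated at -0.24, 0.19 and 0.11, and those of livers at 0.00 to 0.02. With 2 libraries per liver group, both replicate numbers must give the same value. With the replicate number as a block 1 member was lower between the times and the peritumoral arm difference was -1.01. The cause of these changes was not tested. Depth limits Psat1, Phgdh and Asns, with 0 to 35 counts in control livers. It also limits Chac1 at 24 h and Fgf21 at 48 h, which were called lower at low levels.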
